A study of Mus musculus with 16 samples.

Results

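The genes described here are 10 components and targets of the YAP pathway (Yap1, Tead1, Lats2, Ajuba, Ptpn14, Amotl1, Amotl2, Ccn1, Ccn2 and Ankrd1), measured in cultured mouse small intestinal cells. They were taken by name, with every probe set that carries that single gene symbol, which gave 12 probe sets for 10 of the 22180 genes named on the array. Messenger RNA was hybridised to 16 whole-transcript arrays, which represent 14 biological samples from 9 animals of the C57Bl/6 strain aged 8 to 10 weeks. All carry the label male. Wild-type epithelium grown as organoids, the hollow cultures that intestinal crypts form in gel, was kept alone (animals P28 and P30) or with fibroblasts (the same 2 animals). Wild-type intestinal fibroblasts, called myofibroblasts by the submitters, were likewise kept alone or with organoids (animals Pl_I, Pl_II and Pl_III in both conditions). Adenoma cells came from 4 animals of the genotype Apc+/1638N (P21, P23, P34 and P36), in which 1 allele of the tumour suppressor Apc is mutated in every cell. In the co-cultures a membrane with pores of 0.4 µm separated the cell types for 24 h, so that they shared medium without touching. How the adenoma cells were grown is not given, and adenoma cells with fibroblasts were not analysed here.

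YAP is a transcriptional coactivator without a DNA-binding domain of its own, and it acts on genes mainly through the TEAD factors. The Hippo kinase cascade, which ends in the LATS kinases, phosphorylates YAP and keeps it out of the nucleus, and cell contacts, polarity and tension of the actin skeleton feed into that control. In the intestine the pathway is known for its part in regeneration after injury and in tumour growth, and several of its own regulators, among them Lats2, Amotl2 and Ajuba, are also targets of YAP. Messenger RNA levels do not report where the YAP protein is or whether it is phosphorylated.

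Promoter sequence was available for 8 of the 10 genes in RefSeq on build GRCm38.p6, as windows from 250 bases before the transcript start to 50 after it. Tead1 and Ccn2 had no window. The letters CATTCC, the core of the sequence that TEAD factors bind, or the reverse complement GGAATG, occurred in the windows of 7 of these 8 genes. Counted by window, 7 of the 9 windows of these genes held the letters, and a second window of Lats2 did not. The same letters occurred in 14.7% of all 32851 windows. The letters TGANTCA, a site of the AP-1 factors, occurred in none of the 8 genes and in 7.81% of all windows, and the CArG box of serum response factor occurred in none of the 8 and in 1.63%. A match of letters is a description of the sequence and not a measured binding site, and the array data hold no binding measurement. The 250 bases before the start are given for 2 secreted or nuclear target genes (Ccn1, Ankrd1) and for 3 regulators that rose in co-cultured organoids (Ajuba, Ptpn14, Amotl1), each 5′ to 3′ on the gene's own strand, with the TEAD letters in capitals.
Ccn1: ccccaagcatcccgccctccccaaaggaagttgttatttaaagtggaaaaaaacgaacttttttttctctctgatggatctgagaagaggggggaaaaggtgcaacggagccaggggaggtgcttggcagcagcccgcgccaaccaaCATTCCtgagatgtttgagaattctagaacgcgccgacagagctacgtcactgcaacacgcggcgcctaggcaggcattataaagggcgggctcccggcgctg
Ankrd1: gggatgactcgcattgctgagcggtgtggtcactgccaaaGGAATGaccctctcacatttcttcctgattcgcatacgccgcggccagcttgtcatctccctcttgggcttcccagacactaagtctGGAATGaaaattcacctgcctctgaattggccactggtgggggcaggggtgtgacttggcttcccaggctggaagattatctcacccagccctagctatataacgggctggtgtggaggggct
Ajuba: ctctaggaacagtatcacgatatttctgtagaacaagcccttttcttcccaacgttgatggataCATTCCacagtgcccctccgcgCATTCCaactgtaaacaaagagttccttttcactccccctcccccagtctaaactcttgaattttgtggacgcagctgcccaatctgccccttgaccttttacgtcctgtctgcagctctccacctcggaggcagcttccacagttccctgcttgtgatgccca
Ptpn14: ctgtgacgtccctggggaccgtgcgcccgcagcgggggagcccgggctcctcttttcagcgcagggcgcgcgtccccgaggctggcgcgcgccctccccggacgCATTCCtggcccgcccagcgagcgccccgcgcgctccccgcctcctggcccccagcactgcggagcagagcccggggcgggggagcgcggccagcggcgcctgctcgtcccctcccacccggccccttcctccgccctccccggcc
Amotl1: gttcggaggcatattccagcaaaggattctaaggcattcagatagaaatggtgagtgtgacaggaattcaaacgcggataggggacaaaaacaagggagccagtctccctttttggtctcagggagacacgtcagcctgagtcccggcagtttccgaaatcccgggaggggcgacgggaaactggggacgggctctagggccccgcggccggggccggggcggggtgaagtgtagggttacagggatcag
The Ccn1 window lies at chr3:145649986-145650235 on the minus strand, with the match at -103 to -98, where -1 is the base before the start. Ankrd1 (chr19:36119845-36120094, minus strand) holds 2 matches, both in the reverse orientation, that begin at -210 and -123. Ajuba (chr14:54577662-54577911, minus strand) also holds 2, which begin at -186 and -164. Ptpn14 (chr1:189728018-189728267, plus strand) holds 1, at -146 to -141. Amotl1 (chr9:14615001-14615250, minus strand) is the 1 gene of the 8 without the letters. The matches of Yap1, Amotl2 and Lats2 began at -141, at -65 and, within the transcript, at base 5.

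Checks of the labels came first. In both cultures of animals P28 and Pl_III the level of Xist, the RNA of the inactive X chromosome, lay between 7.57 and 8.29 and that of the Y-linked Eif2s3y between 2.53 and 3.20 (log2 array units throughout). In the other 10 samples Xist was at most 2.81 and Eif2s3y at least 7.37, so these 4 samples go against the label male, and the counts of calls are also given without both animals wherever a comparison includes them. The third array of fibroblasts alone names Pl_III in its title and Pl_II in another label, and the title was followed. Its Xist level of 8.25 was near that of the Pl_III co-culture (8.29) and far from that of the Pl_II co-culture (1.87). The means of 15 epithelial markers were 10.92, 11.22 and 9.83 in organoids alone, co-cultured organoids and adenoma cells. In fibroblasts they were 3.46 alone and 3.39 in co-culture. The 15 markers did not move together in adenoma cells. Against organoids alone their differences ran from -4.64 (Krt20) and -4.59 (Cdx1) to 0.59 (Krt18) and 0.83 (Cldn4), with Krt8 at -0.05. The means of 14 fibroblast markers were 3.36, 3.25 and 3.16 in the epithelial groups against 10.57 and 10.55 in fibroblasts. The fibroblast cultures also carried 12 immune cell markers at means of 8.84 and 8.93, against 3.77 to 3.93 in the epithelial groups, and 6 smooth muscle markers at 10.06 and 9.99. In whole cultures like these, fewer cells of a type and less RNA per cell cannot be told apart.

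**Figure D1:**
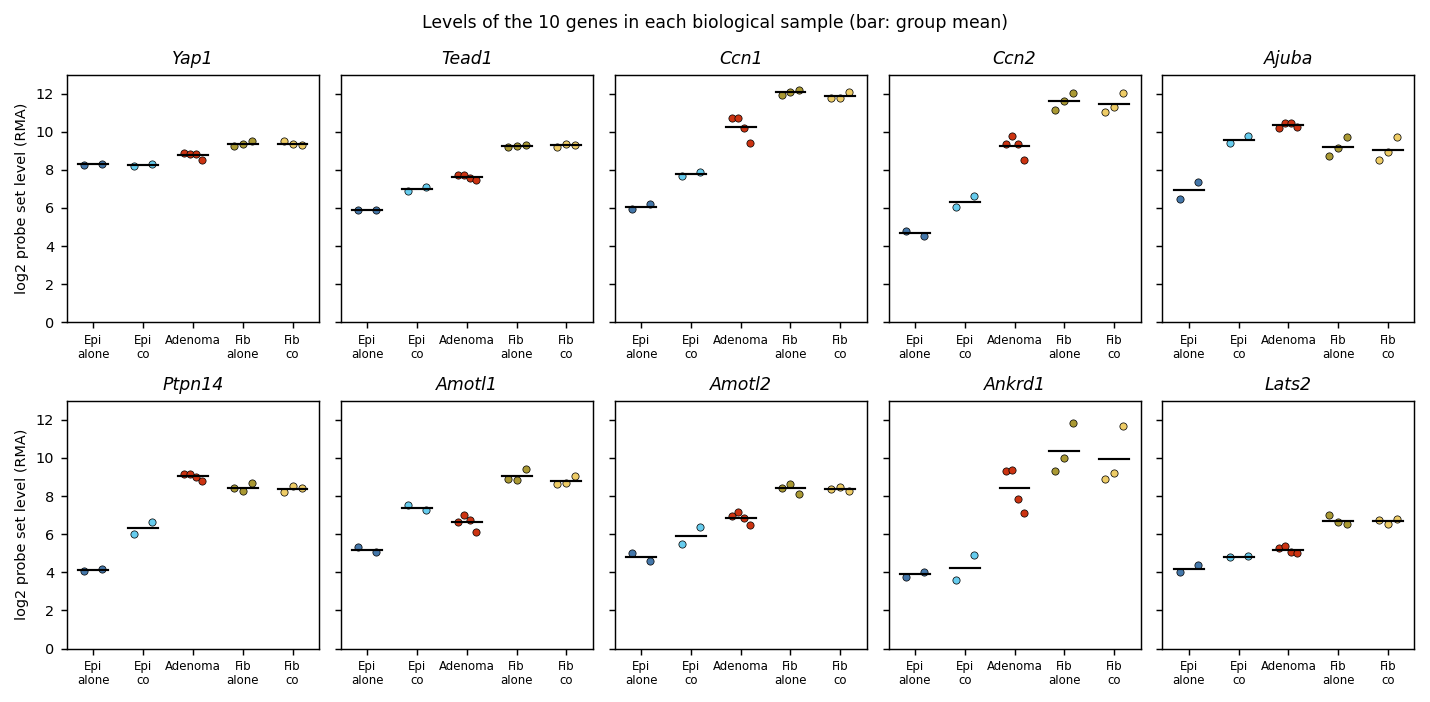
Level of each gene (vertical axis, log2 array units) in each biological sample (points) of the 5 groups, with the group mean as a bar. Yap1 stays between 8.18 and 9.50 in all samples, whereas Ccn1, Ccn2 and Ankrd1 span wide ranges with the lowest points in organoids and the highest in fibroblasts.

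Organoids that had shared medium with fibroblasts held higher levels of 5 of the 10 genes than organoids kept alone, where a gene was called when limma's p, adjusted over all 18095 genes tested, was under 0.05 in a fit of all 5 groups. With only the 4 organoid samples fitted, none of the 10 was called by limma (adjusted p 0.0529 to 0.0626 for the same 5) while 8 had an unadjusted p under 0.05, and of all genes none was called and 3659 had an unadjusted p under 0.05. In the fit of all groups, 2.71% of all genes tested were called higher, 1.32% lower and 4.03% in either direction. The 5 genes were 4 regulators of the pathway or its partner factor (Ajuba, Ptpn14, Amotl1, Tead1) and the target Ccn1. The median difference of the 10 genes, which were chosen with earlier results of these data known, was 1.40 log2 units, against -0.02 for all genes. The contrast sets normal epithelium that shared medium with fibroblast cultures against normal epithelium kept alone. Those cultures also carried immune cell markers, and which cells or what in the medium made a difference was not tested.

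Among the partners of DNA binding, Yap1 itself was level: 8.26 and 8.32 in organoids of P28 and P30 alone and 8.18 and 8.29 in co-culture. Its difference was -0.06 ± 0.15 (SE, n = 2 against 2, adjusted p = 0.922). Tead1, a TEAD factor through which YAP reaches DNA, was at 5.90 and 5.91 alone and at 6.88 and 7.09 in co-culture. Both co-cultures therefore lay about 1 unit above both monocultures, and Tead1 rose by 1.08 ± 0.14 (2.12-fold, adjusted p = 0.00196).

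Of the regulators, 3 of 5 were called. Ajuba, a LIM-domain protein of cell junctions that restrains LATS kinases, went from 6.48 to 9.40 in animal P28 and from 7.36 to 9.77 in P30, a rise of 2.66 ± 0.40 (6.33-fold, adjusted p = 0.00394). Ptpn14, a phosphatase that binds YAP and holds it in the cytoplasm, was at 4.08 and 4.17 alone and at 6.04 and 6.64 in co-culture. It rose by 2.22 ± 0.21 (4.65-fold) with the smallest adjusted p of the 10 genes, 4.1e-04. Amotl1, an angiomotin-like scaffold that binds YAP at junctions, was at 5.31 and 5.06 alone and at 7.51 and 7.26 in co-culture. Its rise of 2.20 ± 0.28 (4.60-fold, adjusted p = 0.00199) was 2.20 in either animal. Its relative Amotl2 was at 5.0 and 4.58 alone and at 5.48 and 6.39 in co-culture. Amotl2 was higher in co-culture by 0.48 in P28 and by 1.81 in P30, and its difference of 1.14 ± 0.30 did not pass in limma (adjusted p = 0.057). Lats2, a kinase that phosphorylates YAP, was at 4.00 and 4.37 alone and at 4.79 and 4.85 in co-culture (0.64 ± 0.20, adjusted p = 0.104).

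Of the targets, Ccn1, a secreted matricellular protein, went from 5.93 to 7.67 in P28 and from 6.18 to 7.90 in P30 and rose by 1.73 ± 0.35 (3.32-fold, adjusted p = 0.02). Ccn2, its close relative also known as connective tissue growth factor, was at 4.80 and 4.53 alone and at 6.03 and 6.61 in co-culture. The Ccn2 difference of 1.65 ± 0.42 did not pass in limma either (adjusted p = 0.0527). Ankrd1, a nuclear ankyrin-repeat protein of muscle and stretched cells, was at 3.77 and 4.02 alone and at 3.60 and 4.90 in co-culture. Apart from the 4.90, these levels were not far above the array medians of 3.48 to 3.58. The co-culture differed by -0.17 in P28 and by 0.88 in P30, and the Ankrd1 difference was 0.35 ± 1.05 (limma, adjusted p = 0.928).

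The labels give the same animals in both conditions. With the animal as a fixed block 6 of the 10 genes were called (Ccn2 joined, adjusted p = 0.0286) and 1370 of all genes, against 729 without the block. With the animal as a random block 8 of the 10 were called, the 3 added being Ccn2 (adjusted p = 0.00409), Amotl2 (0.0113) and Lats2 (0.0166), and 2460 of all genes. The fibroblast markers were no higher in the co-cultured organoids (3.28 and 3.22) than in those alone (3.42 and 3.30). The call of Ccn1 was lost when any 1 of the 4 organoid samples was left out (adjusted p 0.0644 to 0.137), Amotl2 was called without the co-culture of P28 (1.60, adjusted p = 0.0321), and Ankrd1 was at -0.29 without the co-culture of P30. Without animals P28 and Pl_III, which leaves 1 organoid sample a condition whose spread is taken from the other groups, Ajuba (2.41, adjusted p = 0.0264) and Ptpn14 (2.47, adjusted p = 0.0189) were called and the other 8 were not.

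Other genes of the pathway were tested in the same fit, from lists that share no gene with the 10. Of 8 coactivators and TEAD partners 2 rose and none fell: Vgll3, a TEAD-binding cofactor, by 2.30 ± 0.15 (adjusted p = 3.0e-05) and the factor Tead4 by 2.36 ± 0.23 (adjusted p = 4.1e-04). Tead4 was at 5.61 and 5.77 in organoids alone and at 7.96 and 8.15 in co-culture. Tead2 (0.65 ± 0.30, adjusted p = 0.301), Tead3 (-0.17 ± 0.22, adjusted p = 0.797) and Vgll4, a TEAD cofactor that competes with YAP (-0.27 ± 0.32, adjusted p = 0.755), were not called. Wwtr1, which encodes the YAP paralogue TAZ, was at 4.20 and 5.33 alone and at 4.30 and 7.05 in co-culture. Its co-culture levels thus lay far apart between the animals (0.91 ± 0.62, adjusted p = 0.532).

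Of 12 Hippo kinases and adaptors none passed limma's adjusted threshold, and 3 had an unadjusted p under 0.05. The second LATS kinase, Lats1, was among the flat genes (-0.04 ± 0.12, adjusted p = 0.929). Of 18 upstream regulators and junction proteins 2 rose, Wwc2, a KIBRA-family scaffold that activates LATS, by 1.97 ± 0.31 (adjusted p = 0.00466) and the tight junction protein Tjp1 by 0.59 ± 0.13 (adjusted p = 0.0332). Amot, the founding angiomotin, differed by 0.52 ± 0.20 (adjusted p = 0.193). Of 15 further genes of published YAP signatures 2 rose, Asap1 by 1.45 ± 0.29 (adjusted p = 0.0174) and the tissue factor gene F3 by 1.90 ± 0.46 (adjusted p = 0.0428), and none fell. Of 13 serum response factor and actin targets 1 rose, the actin crosslinker filamin A (Flna) by 2.47 ± 0.23 (adjusted p = 4.1e-04). Of the 4 other CCN family genes none passed, and 1 had an unadjusted p under 0.05. Apart from the TEAD partners (0.39), the lists' median differences lay between -0.05 and 0.30. Of the 70 list genes 7 were called in all, against 4.03% of all genes. With only the organoid samples fitted none of them was called. Without P28 and Pl_III, Vgll3, Tead4, Wwc2 and Flna kept their calls, Wwtr1 gained one (1.72 ± 0.19, adjusted p = 0.0244), and Tjp1, Asap1 and F3 were not called (adjusted p 0.187 to 0.328).

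**Figure D2:**
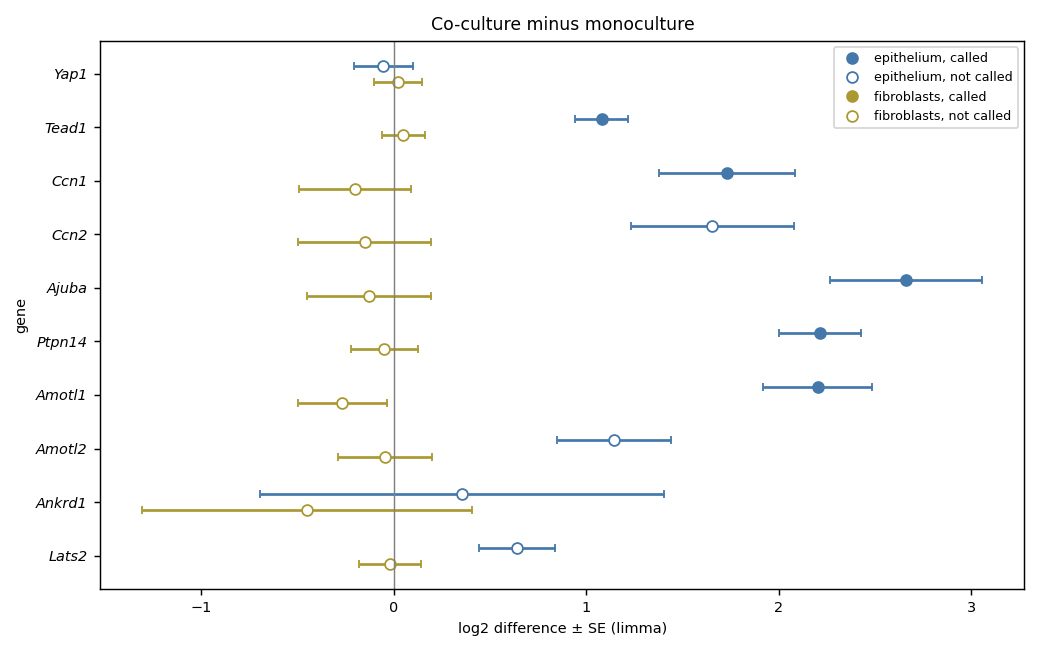
Difference between co-culture and monoculture (horizontal axis, log2 units, with the standard error of limma as bars) for the 10 genes in epithelium (blue) and fibroblasts (olive), with filled points for called genes. The 5 filled points are all epithelial, between 1.08 and 2.66, and the fibroblast points lie between -0.45 and 0.05.

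In fibroblasts, 24 h with organoids left the 10 genes without a called difference. None of the 10 was called by limma, none had an unadjusted p under 0.05, and of all genes 0.00553% (1 gene) were called and 513 had an unadjusted p under 0.05. The differences ran from -0.45 ± 0.86 for Ankrd1 to 0.05 ± 0.11 for Tead1, with a median of -0.09. Ccn1, at 11.90, 12.09 and 12.21 alone, was at 11.75, 11.77 and 12.09 in co-culture (-0.20 ± 0.29, adjusted p = 1). Ptpn14 was at 8.40, 8.25 and 8.68 alone and at 8.23, 8.54 and 8.42 in co-culture (-0.05 ± 0.17, adjusted p = 1). With the animal as a fixed or random block limma also called none of the 10, and 4 and 3 of all genes. None of the genes of the 6 pathway lists was called by limma in fibroblasts, and 1 upstream regulator had an unadjusted p under 0.05. Without P28 and Pl_III none of the 10 and none of the 70 list genes was called by limma, none of the 10 and 3 of the 70 had an unadjusted p under 0.05, and the differences of the 10 ran from -0.61 for Ankrd1 to 0.13 for Yap1.

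The response of the 2 cell types was then compared directly, as the epithelial minus the fibroblast co-culture difference. It was called for 4 of the 10 genes, all in the positive direction, against 0.834% of all genes in that direction and 1.11% in either. The 4 were Ptpn14 (2.27 ± 0.27, adjusted p = 0.00363), Amotl1 (2.47 ± 0.37, adjusted p = 0.0104), Tead1 (1.03 ± 0.18, adjusted p = 0.0203) and Ajuba (2.79 ± 0.51, adjusted p = 0.027). Ccn1 (1.93 ± 0.46, adjusted p = 0.0769) and Ccn2 (1.81 ± 0.55, adjusted p = 0.16) did not pass. Of the lists, Vgll3 (2.36 ± 0.19), Tead4 (2.10 ± 0.29), Wwc2 (2.05 ± 0.39) and Flna (2.46 ± 0.30) were called. With the animal as a fixed block the count stayed at 4 of the 10 while 619 genes were called in all against 200. As a random block it gave 7 of the 10 (Ccn1, Ccn2 and Amotl2 joined, adjusted p 0.00535, 0.0175 and 0.0466) and 1383 in all. With only the 4 wild-type groups fitted the count was again 4, but Ajuba was not called (adjusted p = 0.0768) and Ccn1 was (0.0182). Ptpn14 was called with each sample left out in turn. Tead1 was not called without either organoid sample alone, the co-culture of P30 or the fibroblast co-culture of Pl_I (adjusted p 0.0556 to 0.0898), Amotl1 not without the co-culture of P28 (0.0538), and Ajuba not without any of 6 samples (0.0568 to 0.132). Those 6 were the organoids of P28 alone, both organoid co-cultures, the fibroblasts of Pl_II alone and the fibroblast co-cultures of Pl_I and Pl_II. Without animals P28 and Pl_III none of the 10 was called by limma, 7 had an unadjusted p under 0.05, and the smallest adjusted p was 0.0606 for Ptpn14. None of the 4 list genes kept its call there either (adjusted p 0.0565 to 0.181).

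In adenoma cells all 10 genes were higher than in wild-type organoids kept alone, where 22.5% of all genes were called higher and 41.0% in either direction. The median difference of the 10, which were not chosen blind to these data, was 2.75, against -0.03 for all genes. The largest differences were those of Ptpn14, Ccn2, Ankrd1 and Ccn1. This comparison and the one with co-cultured organoids share the adenoma samples, and the organoids alone also served as controls above.

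Levels in the adenoma cells are given in the order P21, P23, P34, P36. Yap1 was at 8.90, 8.84, 8.82 and 8.52, all above the 2 organoid cultures alone, a difference of 0.48 ± 0.13 (1.40-fold, adjusted p = 0.0112). Tead1 was at 7.72, 7.74, 7.55 and 7.45 (1.71 ± 0.12 above organoids alone, adjusted p = 4.2e-07). The 4 animals lay close together for both genes.

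Ptpn14 was at 9.17, 9.14, 9.03 and 8.82, and its difference of 4.91 ± 0.18 (30.2-fold, adjusted p = 2.4e-09) was the largest of the 10. Ajuba was at 10.21, 10.44, 10.45 and 10.24, a difference of 3.42 ± 0.34 (10.7-fold, adjusted p = 8.0e-06). Amotl1 was at 6.64, 7.01, 6.77 and 6.12 (1.46 ± 0.25, adjusted p = 4.4e-04). Amotl1 was the 1 gene for which adenoma cells lay below the co-cultured organoids of both animals. Amotl2 was at 6.96, 7.19, 6.86 and 6.49 (2.09 ± 0.26, adjusted p = 4.1e-05), and Lats2 at 5.30, 5.36, 5.05 and 5.0 (1.00 ± 0.17, adjusted p = 4.9e-04). Both sat above every organoid sample.

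The targets varied more among the animals. Ccn1 was at 10.70, 10.72, 10.17 and 9.39 (4.19 ± 0.31, 18.2-fold, adjusted p = 6.3e-07), and Ccn2 at 9.35, 9.78, 9.34 and 8.50 (4.58 ± 0.37, 24.0-fold, adjusted p = 1.3e-06). Ankrd1 was at 9.34, 9.34, 7.86 and 7.11 (4.52 ± 0.91, 22.9-fold, adjusted p = 0.00153). The organoids alone, at 3.77 and 4.02 for Ankrd1, were not far above the array medians. P36 was the lowest of the 4 animals for all 3 targets, but even its levels of these exceeded all 4 organoid samples. This place of P36 was not particular to the targets. It was also lowest for Yap1, Tead1, Ptpn14, Amotl1, Amotl2 and Lats2, though not for Ajuba (10.24, against 10.21 in P21). The standard deviation over the 4 animals was 0.62 for Ccn1, 0.54 for Ccn2 and 1.12 for Ankrd1, against 0.12 to 0.38 for the other 7 genes.

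Against co-cultured organoids, 7 of the 10 genes were higher and 1 was lower in adenoma cells, where 19.0% of all genes were higher, 14.3% lower and 33.3% called in either direction. Ankrd1 (4.16 ± 0.91, adjusted p = 0.00374), Ccn2 (2.93 ± 0.37, adjusted p = 8.9e-05), Ptpn14 (2.70 ± 0.18, adjusted p = 6.8e-07) and Ccn1 (2.46 ± 0.31, adjusted p = 8.7e-05) again differed most. Amotl2 (0.94 ± 0.26), Tead1 (0.63 ± 0.12) and Yap1 (0.54 ± 0.13) were higher by smaller amounts, with adjusted p of 0.014, 0.00148 and 0.00774. Amotl1 was lower (-0.75 ± 0.25, 1.68-fold, adjusted p = 0.035). Ajuba (0.75 ± 0.34, adjusted p = 0.12) and Lats2 (0.36 ± 0.17, adjusted p = 0.139) were not called. Cyclic loess scaling left the 10 genes' calls as they were but changed the split of all called genes from 3439 higher and 2583 lower to 2729 higher and 3109 lower.

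All 10 calls against organoids alone held with each sample left out, except that Yap1 lost its call without the organoids of P28 (0.45, adjusted p = 0.0802). Yap1 also lost it under cyclic loess (0.32, adjusted p = 0.0822) and when a gene was read as the mean of all its probe sets (0.19, adjusted p = 0.177, and 0.28 against co-culture, adjusted p = 0.0586). That mean, which includes a dim second probe set of Yap1 and of Ccn2, also lowered Ccn2 from 4.58 to 2.36 against organoids alone and from 2.93 to 1.53 against co-culture, both called. Against co-cultured organoids the sample of P28 mattered more. Without it 4 of the 10 were called, and Yap1, Amotl1, Amotl2 and Ankrd1 were not (adjusted p 0.0592 to 0.252). The lower level of Amotl1 also lost its call without the co-culture of P30, adenoma P21 or adenoma P36 (adjusted p 0.0788, 0.0588 and 0.0643). Without both P28 and Pl_III, 9 of the 10 were called against organoids alone (Yap1 was not, adjusted p = 0.106) and 4 against co-cultured organoids (Ccn1, Ccn2, Ptpn14 and Ankrd1). The 14 fibroblast markers averaged 3.07 to 3.32 in the adenoma samples, against 3.42 and 3.30 in organoids alone, and 4 of the 14 were at or under 2.67, the dim level that a gene's highest group mean had to exceed to be tested.

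**Figure D3:**
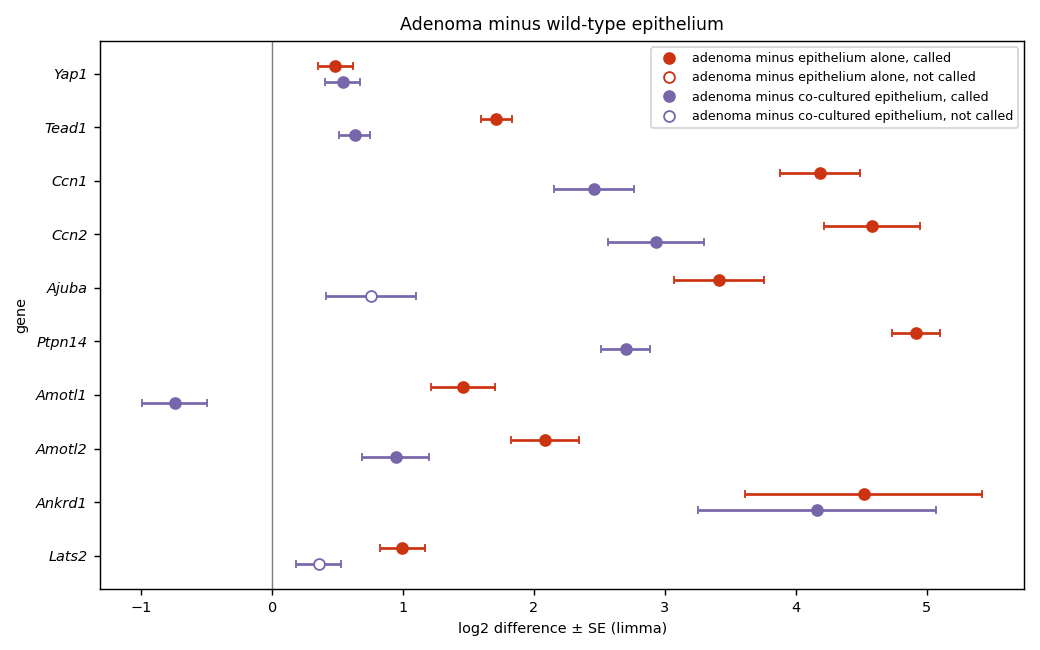
Adenoma cells minus wild-type organoids alone (red) and minus co-cultured organoids (violet) for the 10 genes (horizontal axis, log2 units, with the standard error of limma as bars), with filled points for called genes. All 10 red points are filled and to the right of 0, and the violet point of Amotl1, at -0.75, is the 1 called gene to the left.

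Of the 70 genes of the 6 pathway lists 31 were called in adenoma cells against organoids alone, near the 41.0% of all genes called in either direction. By list, the share was also near it for the kinases and adaptors (5 of 12), signature genes (7 of 15) and actin targets (5 of 13). Of the 8 coactivators and TEAD partners 5 were higher and none lower: Tead2 by 3.72 ± 0.26, Wwtr1 by 3.64 ± 0.54, Tead4 by 2.32 ± 0.20, Vgll3 by 1.73 ± 0.13 and Vgll4 by 0.77 ± 0.27. Wwtr1 was at 8.35, 8.44, 8.49 and 8.32 in the 4 adenoma animals, above every organoid sample. Tead3 was not called (-0.42 ± 0.19, adjusted p = 0.111). Against co-cultured organoids Tead4 differed by -0.04 ± 0.20 (adjusted p = 0.911), and Vgll3 was lower (-0.57 ± 0.13, adjusted p = 0.0047). Tead2 (3.07 ± 0.26), Wwtr1 (2.72 ± 0.54) and Vgll4 (1.04 ± 0.27) remained higher.

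Of the 12 Hippo kinases and adaptors 4 were higher than in organoids alone, among them Map4k5 by 1.61 ± 0.26, Map4k4 by 0.86 ± 0.16 and the scaffold Sav1 by 0.76 ± 0.11, and the LATS-related kinase Stk38 was lower (-0.77 ± 0.15). Lats1 was not called (-0.13 ± 0.11, adjusted p = 0.397). Of the 18 upstream regulators 7 were higher and 2 lower. Frmd6, a FERM-domain protein that activates the kinases, differed by 4.17 ± 0.26, Wwc2 by 3.55 ± 0.26 and the Ajuba-family protein Wtip by 1.98 ± 0.26. The polarity genes Mpp5 and Patj were the 2 lower ones (-0.71 ± 0.13 and -0.51 ± 0.17). Amot was not called (0.42 ± 0.17, adjusted p = 0.069).

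Of the 15 signature genes 5 were higher and 2 lower, led by the membrane protein gene Myof at 7.07 ± 0.32. Myof was at 9.85, 9.82, 10.99 and 10.76 in adenoma cells against 3.08 and 3.49 in organoids alone. Rbms3 (3.14 ± 0.28) and F3 (2.22 ± 0.40) were also higher, whereas Nuak2 (-1.21 ± 0.19) and Dock5 (-0.65 ± 0.23) were lower. Axl, a receptor kinase often listed among YAP targets, was not called (0.49 ± 0.24, adjusted p = 0.131). Of the 13 actin targets 4 were higher, with Flna at 3.53 ± 0.20, Vcl at 0.83 ± 0.23 and Acta2 at 1.19 ± 0.35, and Tagln was lower (-0.82 ± 0.20). None of the 4 other CCN genes was called by limma, and 1 had an unadjusted p under 0.05. The list medians were 1.25 for TEAD partners, 0.02 for kinases, 0.32 for upstream regulators, 0.49 for signature genes, 0.34 for actin targets and 0.04 for the CCN genes, against -0.03 over all genes. Without P28 and Pl_III, 22 of the 70 list genes were called against organoids alone, 21 of them among the 31, and Vgll4, Patj, Dock5 and Acta2 were not (adjusted p 0.0586 to 0.257). Against co-cultured organoids Vgll3 and Vgll4 then lost their calls, and Wwtr1 was higher by 1.35 ± 0.15.

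**Figure D4:**
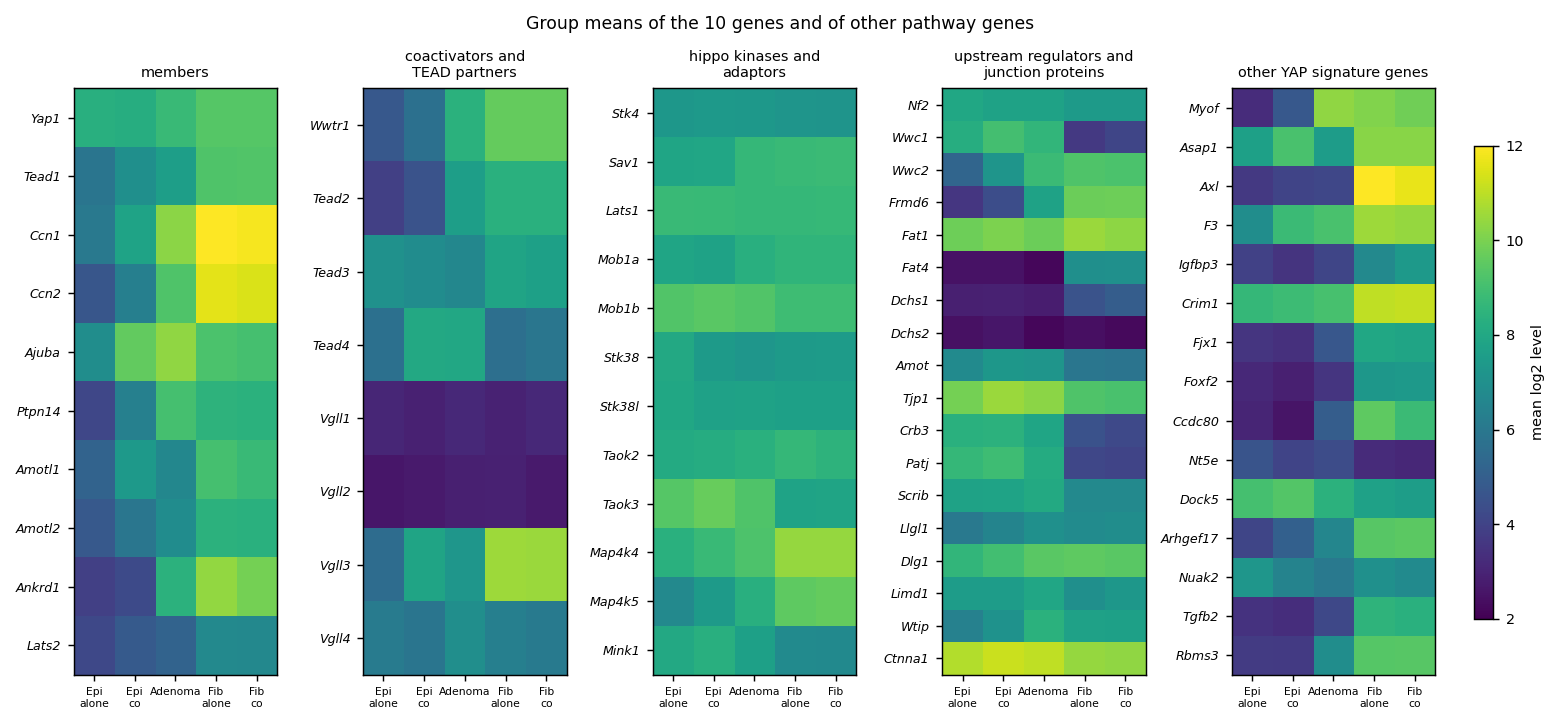
Group means (colour, log2 array units) of the 10 genes and of 4 lists of other pathway genes in the 5 groups. Lats1 is nearly the same colour in all groups, Tead4 is brighter in co-cultured organoids and adenoma cells than in the other 3 groups, and Axl is bright in the 2 fibroblast groups.

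The titles of 2 adenoma animals, P21 and P23, carry the mark T2, whose meaning is not given. Ccn1 was higher in these 2 than in P34 and P36 (10.70 and 10.72 against 10.17 and 9.39), by 0.93 ± 0.23 (1 of 10 genes called, adjusted p = 0.0357, against 3.65% of all genes called higher and 7.14% in either direction). The call was lost without P21, P23 or P36 (adjusted p 0.159, 0.175 and 0.311). The gap of Ankrd1 was wider, 9.34 and 9.34 against 7.86 and 7.11, but so was its spread (1.86 ± 0.93, adjusted p = 0.369). With the adenoma samples fitted alone Ankrd1 passed (adjusted p = 0.00612) and Ccn1 did not (0.0803). The mean of the 15 epithelial markers also differed between these animals, 10.13 and 10.24 in those marked T2 against 9.57 and 9.37. Of those 15 markers 2 were called, Cldn3 (7.13 ± 0.24) and Cdx2 (1.63 ± 0.17), both higher. The other 13 lay between -1.35 (Krt20) and 1.08 (Cldn4), none called, with 4 of them below 0. The part of these markers in the difference of Ccn1 was not tested.

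Fibroblasts kept alone held all 10 genes at higher levels than organoids kept alone, where 26.5% of all genes were called higher and 50.7% in either direction. The largest differences were those of the targets Ccn2 (6.94 ± 0.39), Ankrd1 (6.48 ± 0.96) and Ccn1 (6.01 ± 0.32), and the smallest that of Yap1 (1.07 ± 0.14). Between them lay Ptpn14 at 4.32 ± 0.19, Amotl1 at 3.87 ± 0.26, Amotl2 at 3.62 ± 0.27, Tead1 at 3.35 ± 0.13, Lats2 at 2.52 ± 0.18 and Ajuba at 2.26 ± 0.36. All 10 calls held with each sample left out and without P28 and Pl_III. Ccn2 was at 3.83 as the mean of its probe sets, also called, and Yap1 at 0.56. All 12 immune cell markers and all 6 smooth muscle markers were called higher in the same comparison, with medians of 5.08 and 7.26, and their part in the differences of the 10 genes was not tested.

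In fibroblasts of Pl_I, Pl_II and Pl_III alone, Yap1 was at 9.23, 9.33 and 9.50 and in co-culture at 9.49, 9.34 and 9.30. Tead1 was at 9.20, 9.24 and 9.31 alone and at 9.22, 9.38 and 9.30 in co-culture. The 6 values of either gene lay close together. Amotl1 was at 8.89, 8.82 and 9.45 alone and at 8.63, 8.68 and 9.04 in co-culture, with Pl_III highest in both. Amotl2 ranged from 8.13 to 8.66 and Lats2 from 6.51 to 6.99 over the 6 samples.

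With both cell types in co-culture, 9 of the 10 genes were higher in fibroblasts (23.9% of all genes were called higher, 21.2% lower and 45.1% in either direction). Ajuba was the exception. It was at 8.51, 8.96 and 9.70 in co-cultured fibroblasts and at 9.40 and 9.77 in co-cultured organoids (-0.53 ± 0.36, adjusted p = 0.271), and without P28 and Pl_III it was called lower in fibroblasts (-1.04, adjusted p = 0.0151). Without that pair the other 9 kept their calls.

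Adenoma cells were set against fibroblasts alone last. Only Ajuba (1.15 ± 0.30, adjusted p = 0.00772) and Ptpn14 (0.59 ± 0.16, adjusted p = 0.00979) of the 10 were higher in adenoma cells, where 25.0% of all genes were called higher, 21.5% lower and 46.5% in either direction. The 7 called lower ran from Yap1 at -0.58 ± 0.12 to Amotl1 at -2.41 ± 0.22. Ankrd1 was not called (-1.96 ± 0.80, adjusted p = 0.0637), but was without the fibroblasts of Pl_I (-2.49, adjusted p = 0.0427) and with the animal as a random block (adjusted p = 0.0406). Without P28 and Pl_III the 2 higher and 7 lower calls held, and Ankrd1 was at -1.24.

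The order of the 5 group means was the same for Ccn1, Ccn2, Amotl2, Ankrd1 and Lats2: fibroblasts alone, fibroblasts in co-culture, adenoma, co-cultured organoids and organoids alone. Tead1 differed from it only in the 2 fibroblast conditions, and Yap1 in those and in the 2 organoid conditions. The fibroblast conditions were not told apart for any of the 10. For Tead1 each step between neighbours was called except the one between the fibroblast conditions. The same steps were called for Ccn1. For Ccn2 and Amotl2 the step between the organoid conditions was not called, and for Lats2 neither that step nor the one from adenoma to co-cultured organoids. Ankrd1 had 1 called step, that from adenoma to co-cultured organoids, and its levels spread widely among fibroblasts and among adenomas. Ajuba was highest in adenoma, followed by co-cultured organoids and fibroblasts, with no neighbours told apart until the drop of 2.13 ± 0.36 to organoids alone (adjusted p = 3.3e-04). Ptpn14 was also highest in adenoma, ahead of fibroblasts, and Amotl1 was the 1 gene with co-cultured organoids above adenoma.

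Of the 70 list genes 56 were called between fibroblasts alone and organoids alone, against 50.7% of all genes. With 26.5% of all genes called higher and 24.2% lower, fibroblasts exceeded organoids alone in 12 of the 13 actin targets, 11 of the 15 signature genes (Axl by 8.32 ± 0.25) and 2 of the 4 other CCN genes (Ccn4 by 7.91 ± 0.28, Ccn5 by 6.14 ± 0.33). Of the 8 TEAD partners 4 were higher (Vgll3 by 5.0 ± 0.14, Wwtr1 by 4.88 ± 0.57, Tead2 by 4.47 ± 0.27, Tead3 by 0.78 ± 0.20). Tead4 was not called (-0.04 ± 0.21, adjusted p = 0.901), nor was Vgll4 (0.13 ± 0.29, adjusted p = 0.736). The upstream list divided, with 7 higher, among them Frmd6 (6.17 ± 0.27) and the giant cadherin Fat4 (4.50 ± 0.20), and 10 lower, among them the apical polarity genes Patj (-4.53 ± 0.18) and Crb3 (-3.83 ± 0.24) and Wwc1 (-4.57 ± 0.43). Amot was also lower (-0.86 ± 0.18). Among the 12 kinases and adaptors 5 were higher and 4 lower, and Lats1 was not called (-0.11 ± 0.11, adjusted p = 0.447). The 2 of 4 CCN genes and 4 of 8 TEAD partners are shares near the 50.7% of all genes. Without P28 and Pl_III 51 of the 70 were called, 49 of them among the 56, and of the genes named here Tead3 was not (adjusted p = 0.0861).

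Within the fibroblasts, the animal Pl_III had the highest levels of Ankrd1, Ajuba and Ccn2 in both conditions, as it did of Ccn1 and Amotl1. The other genes did not share this. Amotl2 was lowest in Pl_III in both conditions (8.13 alone and 8.27 in co-culture). Lats2 was lowest there alone (6.51) and highest in co-culture (6.79). Yap1, Tead1 and Ptpn14 were highest in Pl_III alone but not in co-culture. Ankrd1 was at 11.83 alone and 11.70 in co-culture in Pl_III, against 9.32 and 8.88 in Pl_I and 9.97 and 9.19 in Pl_II. Ajuba was at 9.71 and 9.70 in Pl_III, against 8.72 and 8.51 in Pl_I and 9.13 and 8.96 in Pl_II. Ccn2 was at 12.02 and 12.03 in Pl_III, against 11.15 and 11.05 in Pl_I and 11.64 and 11.27 in Pl_II. The order of the 3 animals was the same in both conditions for Ankrd1, Ajuba and Ccn2, and within an animal Ankrd1 fell by 0.44, 0.78 and 0.13 in Pl_I, Pl_II and Pl_III. In Pl_III the 6 smooth muscle markers also averaged higher (10.52 and 10.47 against 9.75 to 9.86), as did the 12 immune cell markers (9.18 and 9.25 against 8.61 to 8.87), while the 14 fibroblast markers did not (10.57 and 10.40 against 10.54 to 10.70). This is 1 of the 2 animals whose X- and Y-linked transcripts go against the label, and the part of any of these in the levels of Ankrd1, Ajuba and Ccn2 was not tested.

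**Figure D5:**
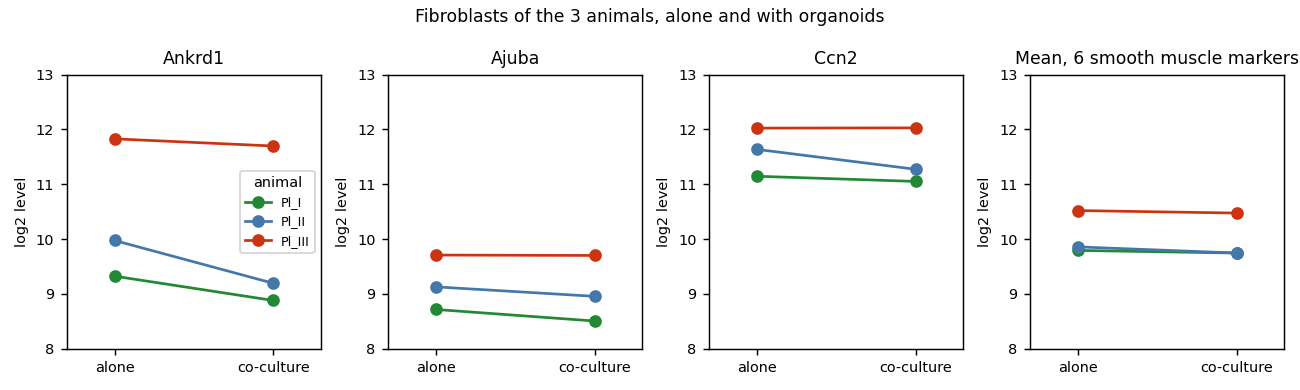
Levels (log2 array units, axis from 8 to 13) of Ankrd1, Ajuba, Ccn2 and the mean of 6 smooth muscle markers in fibroblasts of the 3 animals, alone and in co-culture, with a line for each animal. The line of Pl_III lies above the other 2 in all 4 panels, and for Ankrd1 it is at 11.83 and 11.70.

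For each of the 10, the genes most like it were those with the smallest root mean square distance between the 5 centred group means. These were Pias2 (0.04) and Zfp639 (0.04) for Yap1, S1pr2 (0.03) and Cnn2 (0.09) for Tead1, and Farp1 (0.04) and Tnfaip3 (0.05) for Lats2. Ajuba lay nearest to Anxa3 (0.09) and Sema3c (0.29), Ptpn14 to Ska2 (0.10) and Nap1l1 (0.28), Amotl1 to Arhgap29 (0.24) and Phldb2 (0.34), and Amotl2 to Nav1 (0.11) and Flot2 (0.12). The targets Ccn1, Ccn2 and Ankrd1 lay nearest to Elk3 (0.26) and Smo (0.27), to Anxa6 (0.28) and Frmd6 (0.31), and to Il1r1 (0.26) and 9930111J21Rik2 (0.27). These distances describe 5 group means and carry no test.

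Yap1 and Ccn2 each had a second probe set that stayed dim, at means of 3.06 and 3.79 over all samples. The second probe set of Yap1 was called in none of the 9 comparisons by limma, with the smallest adjusted p 0.238. That of Ccn2 was called in 2, fibroblasts against organoids alone (0.72 ± 0.22, adjusted p = 0.0145) and adenoma against fibroblasts (-0.59 ± 0.18, adjusted p = 0.0187), in the direction of the bright probe set but much smaller. Repeat arrays of the adenoma animals P21 and P34 differed by -0.39 to 0.28 in the 10 genes. Over all genes, dim ones included, the SD of these differences was 0.42 and 0.43.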

How the data were processed

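Each array gave 1 column of log2 values that the authors had made with RMA (background correction, normalization between arrays and summary of probes into probe sets), per the submitters' processing notes. The sources used here give neither the version nor the array library and genome build. Of 41345 probe sets, 23521 carried 1 gene symbol in GEO's platform annotation, 1814 several and 16010 none. A gene was read from its brightest probe set and tested where its highest group mean was above 2.67, which is the 30th percentile of the means of all probe sets: 18095 of 22180 genes, with all 10 described here. The 6 adenoma arrays were averaged to 4 animals. Array medians lay between 3.48 and 3.58, and the small number of arrays limits the precision. The 5 group means were fitted together with limma 3.58.1 in R 4.3.3 (lmFit, eBayes, 11.7 degrees of freedom; 6 means for the adenoma split by title), 2-sided, with Benjamini-Hochberg adjustment over all genes and a threshold of 0.05. All 9 comparisons used this fit, which was also tested on simulated data.

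Cultures of 1 type share animals per the labels. Deviations from the group means correlated at 0.33 between cultures of the same animal in organoids and at 0.51 to 0.79 in fibroblasts. Between cultures of different animals the values were -0.61 to 0.20. Deviations cancel within a group, so with 2 organoid animals the value between animals (-0.33) is fixed as the mirror of 0.33. With 3 fibroblast animals it is pulled down when the pairs agree. The second range is therefore no independent baseline for the pairing. Fits with the animal as a fixed or random block (random correlation 0.46) are given where they changed a call. Other alternatives were no filter or a 50th percentile filter, cyclic loess, a trended prior, other probe set rules, fits of the compared groups only and samples left out. The genes and lists were chosen with earlier results of these data known. Named were the 10 genes, Wwtr1, Tead2, Tead3, Tead4, Lats1, Amot and Vgll4, up to 3 genes a list and direction with the smallest p, and 2 nearest patterns a gene; Axl, the remaining called TEAD partners and sample-level examples were named after their values were seen. List genes not analysed here include Stk3, Taok1, Map4k2, Map4k3, Rassf1 and Gadd45a, and Pals1 was read as Mpp5. Separate animals are replicates only where the labels name them; how many cultures each sample pools is not given.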

Additional observations from a re-analysis of the deposited data

Results flagged for a closer look

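The co-culture response differed between epithelium and fibroblasts for 4 of the 10 genes, by the test of that difference in limma: Ptpn14 by 2.27, Amotl1 by 2.47, Tead1 by 1.03 and Ajuba by 2.79 log2 units. In organoids each of the 4 was higher in co-culture in 2 of 2 animals. In fibroblasts none of the 4 was called by limma. There Ajuba and Amotl1 were lower in 3 of 3 animals, though Ajuba by almost nothing in Pl_III (-0.007), while Tead1 and Ptpn14 moved in both directions. Among the 4 adenoma animals none of the 10 genes had a single animal far from the other 3 by Dixon's limit, which chance passes in about 1 of 20 groups.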

How the results depend on the processing

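Of the counts of the 10 genes, those of adenoma cells or fibroblasts against organoids alone, of the fibroblast co-culture, of the co-cultured cell types and of adenoma against fibroblasts stayed within 1.5 times under each alternative run. The count in co-cultured organoids, 5, was 0 when only the organoid samples were fitted (limma, 8 of the 10 with an unadjusted p under 0.05), 8 with the animal as a random replicate block, 6 with it as a fixed block and 2 without animals P28 and Pl_III. For the difference of the co-culture responses, 4, it was 7 with the random block and 0 without those animals, and 2 to 4 with each sample left out. Against co-cultured organoids, 8 adenoma calls became 4 without those animals and 4 to 8 with each sample left out, and the single call between the adenoma titles 0 to 1. With the random block, Ankrd1 was called in adenoma against fibroblasts and Ccn2, Amotl2 and Lats2 in organoids. It also added Ccn1, Ccn2 and Amotl2 in the difference of responses. The fixed block added Ccn2 in organoids. Neither block changed another call of the 10 genes.

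Over all genes, 729 calls in co-cultured organoids became 0 with only those samples, 2460 and 1370 with the random and fixed block, 68 without P28 and Pl_III and 202 to 389 with each sample left out. For the difference of responses 200 became 1383, 619, 5 and 56 to 164, and the single fibroblast call became 3 and 4 with the blocks and 0 in several fits. Against co-cultured organoids 6022 became 3984 without those animals and 3864 without the co-culture of P28, and between the adenoma titles 1292 became 681 to 831.

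Directions turned only among values that were not called. Leaving out each sample, Ankrd1 in co-cultured organoids ran from -0.29 to 1.00. In fibroblasts the ranges were -0.041 to 0.093 for Yap1, -0.44 to 0.060 for Ccn2, -0.45 to 0.14 for Ajuba, -0.15 to 0.067 for Ptpn14 (0.053 without P28 and Pl_III), -0.19 to 0.075 for Amotl2, -1.34 to 0.27 for Ankrd1 and -0.12 to 0.12 for Lats2, and Ajuba between the adenoma titles ran from -0.13 to 0.089. Fits without a sample hold fewer values, and the cause of the other changes was not tested. Groups of 2 to 4 animals and probe sets near the dim level limit what could be called.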
